A study of Mus musculus with 20 samples.

Results

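The postsynaptic scaffold genes described here are the 10 mouse genes Dlg1, Dlg2, Dlg3, Dlg4, Shank1, Shank2, Shank3, Homer1, Homer2 and Homer3. They were chosen by gene symbol, all 10 were found, and the table of developmental stages lists 22556 genes in all. RNA was measured in serotonin (5-HT) neurons of C57BL/6 mice, which carried a yellow fluorescent protein, EYFP, and were isolated by flow cytometry. The stage series had 3 wild-type libraries each from the embryonic days E11.5 and E15.5 and from postnatal days 1 to 3 (PN), made with the Clontech SMARTer kit. The knockout series set those 3 wild-type E15.5 libraries against 3 Pet-1-/- libraries made with the same kit, and another 3 wild-type against 3 knockout libraries made with the NuGEN Ovation kit. Pet-1, encoded by Fev, is an ETS-family transcription factor of serotonin neurons, and wild-type and knockout neurons alike were sorted by EYFP. Binding of a Myc-tagged Pet-1 was mapped in embryonic hindbrain in 1 immunoprecipitated sample with 1 input. Its labels conflict, since one field gives wild type and E12.5 to E14.5 while the protocol names knockout embryos (Pet-1-/-) that carry both ePet-mycPet-1 and ePet-EYFP, up to E15.5. The ePet element drives these transgenes in serotonin neurons.

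Excitatory synapses carry a dense protein layer under the receiving membrane, the postsynaptic density, which holds glutamate receptors opposite the site of release. Dlg proteins are membrane-associated guanylate kinases that bind receptors, channels and adhesion molecules through PDZ domains. Shank proteins form a deeper layer that joins the Dlg layer, by way of the Dlgap proteins, to Homer and to actin. Homer proteins bind Shank, group I metabotropic glutamate receptors and the inositol trisphosphate receptor, and their long forms assemble through coiled coils.

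Levels are FPKM, fragments scaled to the length of the transcript and to the mapped fragments of the library. The order of genes by FPKM still differed with the kit. In wild type at E15.5, Dlg2 and Dlg3 were at 1.81 and 2.61 FPKM in the authors' deposited table for the Clontech kit. They were at 4.23 and 3.36 FPKM in that for the NuGEN kit. Ranks and family shares below rest on the Clontech libraries. Libraries within a stage are called a, b and c in column order, since the columns carry no replicate number. Nothing in the labels says that libraries of a group came from separate animals, so p-values rest on the spread between these libraries, which may be technical. Depth is not given in the files used here. FPKM of a library summed to between 630091 and 919994. All 9 listed markers of serotonin neurons averaged at least 1 FPKM at every stage. Their summed FPKM was 1076 to 1477 at E11.5, 499 to 599 at E15.5 and 490 to 743 in PN, so it was lower in every later library than in any E11.5 library. Slc6a4 departed from this course, with means of 98.2, 25.85 and 137 FPKM at E11.5, E15.5 and PN. So did Maob, with means of 31.5, 34.2 and 7.52 FPKM. The other listed serotonin neuron markers had lower means at both later stages than at E11.5. Markers of other cells moved with stage. The summed FPKM of 9 microglia and blood genes was 4.07 to 8.21 at E11.5, 15.7 to 67.5 at E15.5 and 117 to 1123 in PN, and that of 9 astrocyte genes was 1.62 to 6.47, 50.9 to 147 and 120 to 257. The blood gene Hba-a1 had means of 0.0780, 23.1 and 0.398 FPKM at these stages, and Cd68 had 3.84, 0.510 and 41.6 FPKM. The other listed microglia and blood genes had higher means at each later stage. Of the astrocyte genes Aldoc and Sparcl1 were the highest in PN, with means that went from 1.68 and 1.31 FPKM in the E11.5 libraries to 91.3 and 62.2 FPKM, while the filament gene Gfap went from a mean of 0.00394 to 0.693 FPKM. From E15.5 to PN the means of Slc1a3 and Aldh1l1 fell, from 14.9 and 9.93 to 8.48 and 4.83 FPKM. S100b was at 2.60 and 2.52 FPKM. The other listed astrocyte genes had higher means in PN than at E15.5. The 7 neural progenitor genes summed to 307 to 533, 960 to 1795 and 345 to 980 FPKM. This course was mostly that of Fabp7, with means of 178, 1347 and 563 FPKM at E11.5, E15.5 and PN. Nes, Sox2, Pax6, Hes5 and Vim had lower means at E15.5 than at E11.5 (Vim 78.9 against 235 FPKM). Mki67 went from 0.263 to 0.501 FPKM. The 7 oligodendrocyte lineage genes summed to 6.10 to 12.6, 14.7 to 72.3 and 13.2 to 17.0 FPKM. The 5 vascular and meningeal genes summed to at most 2.42 FPKM in any library. The part of these other cells in the stage changes below was not tested. In bulk libraries such as these, fewer cells of a type and less RNA per cell cannot be told apart.

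The scaffold genes were modestly expressed, and their make-up changed across stages. At E11.5 Homer3 and Dlg4 were the most abundant of the 10, and Dlg2 was the least. By PN the highest levels were those of Dlg3, Shank1, Dlg4 and Dlg2, and Homer3 had dropped to the eighth place. Of the 10 genes, 7 reached 1 FPKM in at least 3 of the 9 stage libraries and were tested for stage changes. The other genes, Dlg1, Shank2 and Shank3, did not pass this filter. Dlg2, Homer2 and Homer3 passed it only through the stages where they were high. The count of tested genes is thus no evidence about the 10. The same holds for the counts of calls and of stages without overlap among the 7, and for their median changes.

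From E11.5 to E15.5, 4 of the 7 tested genes changed by limma: Dlg2 rose, and Dlg3, Dlg4 and Homer3 fell. Of these, Dlg2 and Homer3 had passed the filter only through the stages where they were high. A call required a Benjamini-Hochberg adjusted p below 0.05 over 11741 genes and a change of at least 1.5-fold on the log2(FPKM + 1) scale, which understates changes of low genes. Of all genes tested 28.9% were called in this interval, 17.4% higher and the rest lower. The libraries of the 2 stages did not overlap for the same 4 genes, 1 higher and 3 lower, and for 42.3% of all genes, 24.6% higher and 17.7% lower. The median log2 change was -0.72 over the 7 tested scaffold genes and 0.11 over all genes. Scaling each library to the same upper quartile put the median of all genes at -0.02 and the share of rises among all calls at 49.6% instead of 60.3%. Relative to the median of all genes as deposited, the log2 changes were 1.12 for Dlg2, -1.26 for Dlg3, -1.60 for Dlg4 and -3.15 for Homer3.

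**Figure D1:**
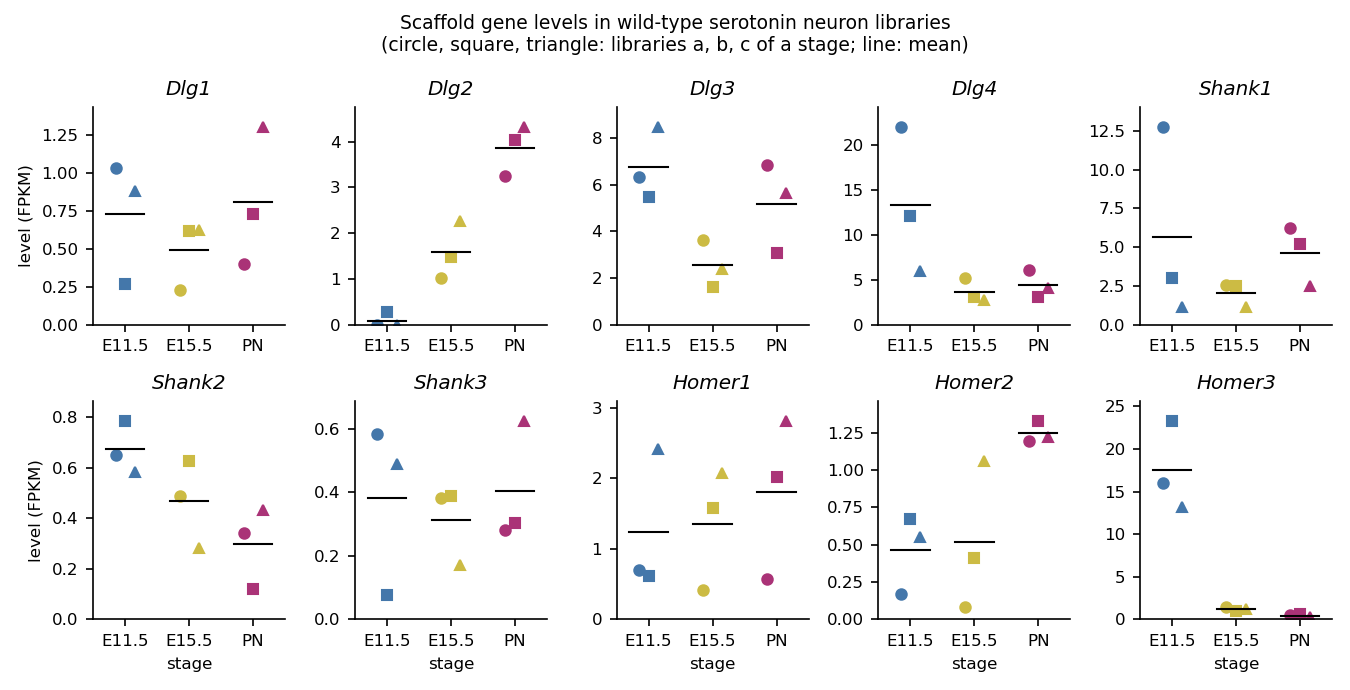
Level (FPKM, linear axis from 0, a scale per panel) of the 10 scaffold genes in the 9 wild-type libraries by stage, with a symbol for each library and a line at the mean of 3. Homer3 sits between 13.2 and 23.3 FPKM at E11.5 and at most at 1.41 FPKM later, and Dlg2 climbs from at most 0.272 FPKM to at least 3.26 FPKM.

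Homer3 encodes a long-form Homer adaptor that is well known from cerebellar Purkinje cells. The gene lies on chromosome 8 (70282880 to 70294361, plus strand, GRCm38.p6), and its RefSeq span overlaps that of the neighbouring gene Ddx49. No source used here says whether the counting used strand, so reads from the overlap may be shared. Homer3 was at 16.0, 23.3 and 13.2 FPKM in the E11.5 libraries a to c, at 1.41, 0.997 and 1.18 at E15.5, and at 0.505, 0.549 and 0.200 FPKM in PN. Every E11.5 library was thus far above every later one, and the PN libraries were all below those of E15.5. The mean went from 17.5 ± 5.19 to 1.19 ± 0.205 FPKM (SD, n = 3) from E11.5 to E15.5, and limma gave a log2 change of -3.04 with an SE of 0.34 (adjusted p = 7.95e-05). Leaving out any 1 library kept this fall within -3.22 to -2.83 and past the threshold. The authors' deposited table for the stages gave a log2 fold change of -3.82, which missed the threshold there (q = 0.222). In PN the mean was 0.418 ± 0.190 FPKM (SD, n = 3), and the later change missed the threshold (log2 change -0.63, SE 0.34, limma, adjusted p = 0.207). On the log2(FPKM + 1) scale the change was steeper in the earlier than in the later interval (difference 2.41, SE 0.59, limma, adjusted p = 0.0126). Homer3 began the later interval at a mean of 1.19 FPKM, from which a fall on this scale can only be small. A positive difference was thus largely set by that low level, and no conclusion is drawn from it. A difference between the intervals passed for 22.6% of all genes, 9.62% with a positive and 13.0% with a negative sign, and for 1 of the 7 scaffold genes, Homer3. It missed the threshold without E15.5 library b (limma, adjusted p = 0.0555) or c (limma, adjusted p = 0.0501), and with a pseudocount of 0.1 FPKM (limma, adjusted p = 0.0807).

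Homer1 and Homer2 did not take the same course. Homer1, on chromosome 13 (93303757 to 93405129, plus strand), makes long scaffolding forms and a short activity-induced form, Homer1a, that lacks the coiled coil and loosens Homer links. The gene-level values do not separate these forms. Homer1 was at 0.693, 0.604 and 2.41 FPKM at E11.5, 0.414, 1.58 and 2.07 at E15.5 and 0.569, 2.01 and 2.81 FPKM in PN. The libraries of the stages overlapped throughout. Its log2 change was 0.09 (95% interval -0.89 to 1.07) in the earlier and 0.23 (-0.75 to 1.20) in the later interval, and both missed the threshold (limma, adjusted p = 0.902 and 0.759). In the same libraries 14 immediate early genes, which neurons switch on within minutes of stimulation or handling, summed to 83.6 to 159 FPKM in the E11.5 libraries, 39.9 to 46.2 at E15.5 and 228 to 336 FPKM in PN. These genes did not share 1 course. Ier2 had means of 67.5, 5.47 and 40.3 FPKM, Dusp1 28.2, 5.87 and 31.5 FPKM, and Fos 8.17, 16.9 and 148 FPKM. Junb, Egr1 and Egr3 also had lower means at E15.5 than at E11.5, and the remaining listed genes had higher ones. Homer2, on chromosome 7 (81600481 to 81706925, minus strand), encodes another coiled-coil Homer. Its level was 0.170, 0.674 and 0.550 FPKM at E11.5, 0.0801, 0.407 and 1.06 at E15.5, and 1.19, 1.33 and 1.22 FPKM in PN. The PN libraries lay close together and above all earlier ones, but the later change missed the threshold (log2 change 0.62, SE 0.32, limma, adjusted p = 0.189).

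The start of Homer1 was covered by a binding peak of mycPet-1, at chr13:93303237-93304066, with a score of 157 and rank 997 of 4934 peaks. It is the 1 peak that overlapped any of the 18 promoter windows that RefSeq's GRCm38.p6 table holds for 8 of the 10 genes, so that window is shown. It runs from 250 bases before to 50 bases after the start, at chr13:93303507-93303806 on the plus strand, and capitals mark the letters GGAA, the core of ETS sites, on either strand (TTCC where the match is on the other strand).
Homer1 promoter: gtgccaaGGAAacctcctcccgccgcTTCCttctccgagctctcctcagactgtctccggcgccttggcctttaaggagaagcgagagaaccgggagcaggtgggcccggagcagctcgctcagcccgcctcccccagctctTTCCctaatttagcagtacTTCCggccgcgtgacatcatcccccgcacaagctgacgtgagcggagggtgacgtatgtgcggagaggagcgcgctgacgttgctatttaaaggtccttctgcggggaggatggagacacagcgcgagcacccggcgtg
The window holds 4 matches to GGAA, which 96.0% of 32851 promoter windows of this length hold at least once. It holds 1 match to the longer CGGAAG on either strand, which contains one of the 4, and 16.9% of windows hold that. Of the 18 windows 1 other, of Dlg1, held CGGAAG. The Homer1 window also holds 3 matches, on either strand, to TGACGT, which is part of the longer cyclic AMP response element. At least 1 such match was found in 7.51% of windows and in none of the other 17. A match is only a match of letters.

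Within the Homer family the leading member changed. Homer3 made up 90.5% ± 7.59 of the summed Homer FPKM at E11.5, 44.9% ± 25.4 at E15.5 and 13.7% ± 8.78 in PN (SD, n = 3). Homer1 held 7.15% ± 6.76, 40.9% ± 16.7 and 47.8% ± 20.9, and Homer2 held 2.38% ± 1.24, 14.2% ± 10.2 and 38.5% ± 12.48 (SD, n = 3). The lowest Homer3 share at E11.5, 81.7%, was above the highest at E15.5, 74.0%, which was that of library a. The summed level of the 3 genes was 16.2 to 24.6 FPKM at E11.5, 1.90 to 4.32 at E15.5 and 2.27 to 4.23 FPKM in PN, so that the E15.5 and PN libraries overlapped.

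**Figure D2:**
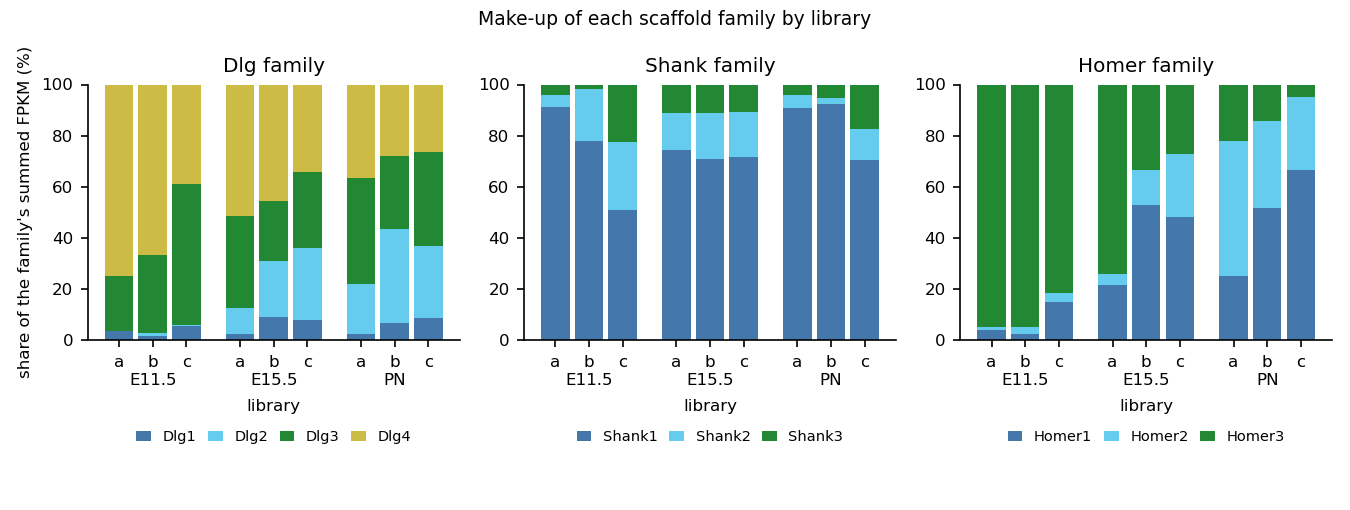
Share (%) of each gene in the summed FPKM of its family, as stacked bars for the 9 wild-type libraries a to c of each stage. Homer3 takes 81.7% or more of the Homer bars at E11.5 and 22.3% or less in PN, Shank1 leads every Shank bar, and the Dlg2 part of the Dlg bars is a thin line or absent at E11.5 and at least 19.6% in PN.

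Among the Dlg genes, Dlg4 and Dlg3 fell from E11.5 to E15.5 while Dlg2 rose. Dlg4 encodes PSD-95, the most studied scaffold of excitatory synapses, on chromosome 11 (70017203 to 70045535, plus strand). Its level was 22.0, 12.1 and 5.96 FPKM in the E11.5 libraries, 5.14, 3.09 and 2.74 at E15.5 and 6.10, 3.06 and 4.06 FPKM in PN. The E11.5 libraries spread widely, and the lowest of them was still above all of E15.5 but below the highest of PN. The log2 change from E11.5 to E15.5 was -1.49 (SE 0.45, limma, adjusted p = 0.0262), and the authors' deposited table also gave a fall (log2 fold change -1.82, q = 3.88e-04). The limma call was lost without E11.5 library a or b (adjusted p = 0.0844 and 0.0604), without E15.5 library b or c (adjusted p = 0.0768 and 0.0874), with no filter on low genes (adjusted p = 0.0671) and in a fit of the 2 stages alone (adjusted p = 0.0581). The later log2 change was 0.21 (95% interval -0.77 to 1.19, limma, adjusted p = 0.781). Between E11.5 and PN it was -1.28 (limma, adjusted p = 0.0510). This value passed the threshold with upper quartile scaling, median centring or no mean-variance trend (limma, adjusted p = 0.0409, 0.0449 and 0.0457) and without E11.5 library c (limma, adjusted p = 0.0111).

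Dlg3 encodes SAP102, a scaffold that is abundant at young synapses, on the X chromosome (100767411 to 100818410, plus strand). It was at 6.33, 5.46 and 8.48 FPKM at E11.5, 3.61, 1.61 and 2.40 at E15.5 and 6.84, 3.09 and 5.64 FPKM in PN. E15.5 was a low point, with every library under every E11.5 library and 1 of them, library a, above the lowest of PN. The fall to E15.5 measured -1.15 on the log2 scale (SE 0.38, limma, adjusted p = 0.0388), and the authors' deposited table gave it q = 0.0146. The limma call was lost without E11.5 library a, b or c (limma, adjusted p = 0.0584, 0.0507 and 0.0961), E15.5 library b or c (limma, adjusted p = 0.135 and 0.0922) or PN library c (limma, adjusted p = 0.0531), and it held without any 1 of the other 3 libraries. With no filter, and in a fit of the 2 stages alone, it was also lost (limma, adjusted p = 0.0636 and 0.0628). The later change, 0.79 on the log2 scale, missed the threshold (limma, adjusted p = 0.160), and the difference between the intervals was just short of it (difference 1.95, SE 0.66, limma, adjusted p = 0.0508). That difference passed with upper quartile scaling, with no mean-variance trend and without PN library b (limma, adjusted p = 0.0348, 0.0383 and 0.0393).

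Dlg2 encodes PSD-93, also called chapsyn-110, a close relative of PSD-95, and spans a long stretch of chromosome 7 (90476188 to 92449246, plus strand). It was listed at 0, 0.272 and 0.00452 FPKM in the E11.5 libraries, at 1.02, 1.49 and 2.27 at E15.5 and at 3.26, 4.03 and 4.32 FPKM in PN. The 3 stages did not overlap, and each was above the one before. The log2 change was 1.23 from E11.5 to E15.5 (SE 0.32, limma, adjusted p = 0.0128) and 2.16 from E11.5 to PN (SE 0.32, limma, adjusted p = 3.28e-04). The first of these missed the threshold without E15.5 library c (log2 change 1.05, limma, adjusted p = 0.0567) and in the authors' deposited table (log2 fold change 4.12, q = 0.283). The second passed in every fit without 1 library, between 2.09 and 2.27 on the log2 scale. The later change of 0.93 (SE 0.32) was just short of the threshold by limma (adjusted p = 0.0558). Without a mean-variance trend it passed (limma, adjusted p = 0.0456), and it also passed in the authors' deposited table (q = 0.00844).

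Dlg1 encodes SAP97, the broadly expressed member of the family, on chromosome 16 (31663443 to 31873356, plus strand). It ranged from 0.271 to 1.04 FPKM at E11.5, 0.229 to 0.626 at E15.5 and 0.404 to 1.31 FPKM in PN, and the stages overlapped. As a share of the summed Dlg FPKM, Dlg4 held 60.2% ± 18.9 at E11.5, 43.6% ± 8.77 at E15.5 and 30.4% ± 5.53 in PN, while Dlg2 held 0.511% ± 0.860, 20.1% ± 9.16 and 28.3% ± 8.65 (SD, n = 3). The Dlg4 shares of the libraries overlapped between E11.5 and E15.5 and between E15.5 and PN, but not between E11.5 and PN. Those of Dlg2 overlapped between E15.5 and PN. The Dlg3 share was 35.7% ± 17.5, 29.9% ± 6.23 and 35.4% ± 6.54 (SD, n = 3), with overlapping libraries at all stages. In E11.5 library c Dlg3 held the largest share, 55.3%.

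Shank1 was the main Shank gene at every stage. It encodes a large scaffold of excitatory spines, on chromosome 7 (44308916 to 44360094), and its span overlaps that of 1700008O03Rik, so reads from the overlap may be shared. Its level was 12.8, 3.03 and 1.12 FPKM in the E11.5 libraries, 2.53, 2.49 and 1.13 at E15.5 and 6.23, 5.20 and 2.51 FPKM in PN. The E11.5 libraries differed more among themselves than from the other stages, with library a far above the others. The log2 change from E11.5 to E15.5 was -0.72 (95% interval -1.99 to 0.55, limma, adjusted p = 0.384), and it was 0.03 without E11.5 library a. The authors' deposited table called it lower (log2 fold change -1.41, q = 0.00641). The later log2 change was 0.86 (95% interval -0.41 to 2.13, limma, adjusted p = 0.327), and the authors' deposited table called it higher (log2 fold change 1.148, q = 0.0184). Shank1 held 51.0% to 91.2% of the summed Shank FPKM at E11.5, 71.0% to 74.4% at E15.5 and 70.4% to 92.4% in PN.

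Shank2 and Shank3, on chromosomes 7 (143978077 to 144426043) and 15 (89493013 to 89560261), stayed below 1 FPKM in all 9 libraries. Both encode Shank scaffolds that have been linked to autism. Shank2 ranged from 0.583 to 0.784 FPKM at E11.5, 0.281 to 0.628 at E15.5 and 0.120 to 0.431 FPKM in PN. All PN libraries were below all E11.5 libraries, while E15.5 overlapped both. Shank3 ranged from 0.0758 to 0.585, 0.170 to 0.388 and 0.282 to 0.625 FPKM, with overlap throughout.

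**Figure D3:**
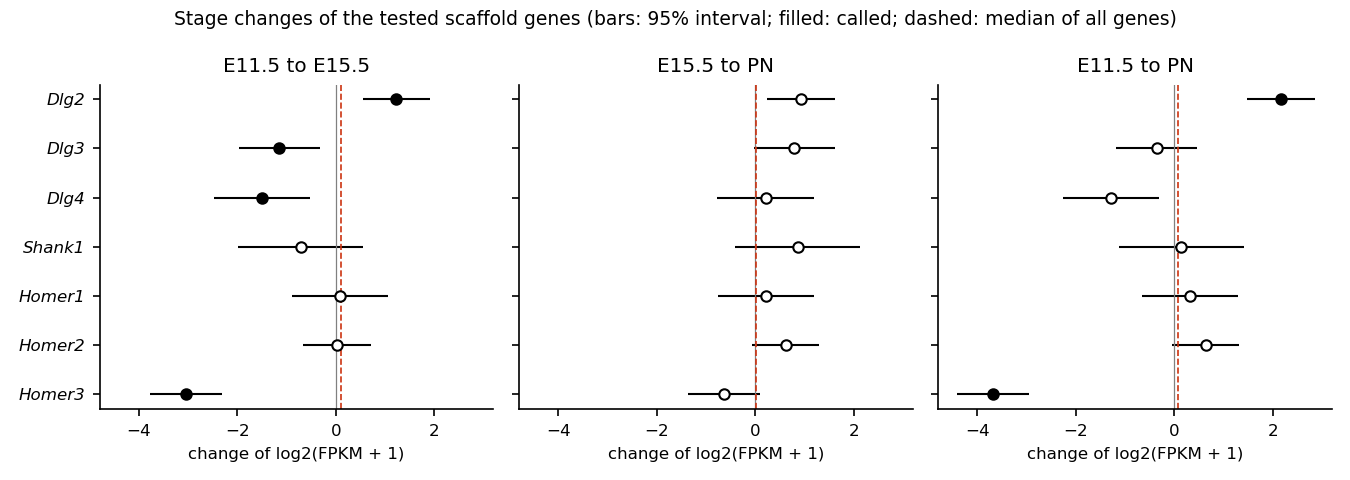
Change of log2(FPKM + 1) with its 95% interval (limma) for the 7 tested scaffold genes in each interval, filled where called, with a dashed line at the median change of all genes. Homer3 and Dlg2 lie farthest from 0 over the whole span, at -3.68 and 2.16, and no gene is filled from E15.5 to PN.

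From E15.5 to PN none of the 7 tested scaffold genes was called by limma, against 20.2% of all genes, 10.6% higher and 9.55% lower. At an unadjusted p below 0.05 there was 1, Dlg2, against 34.4% of all genes. The authors' deposited table called 2, Dlg2 and Shank1, against 32.9% of all genes. The libraries did not overlap for 3 genes, with Dlg2 and Homer2 higher and Homer3 lower, and for 42.2% of all genes, 21.6% higher and 20.6% lower. The median log2 change was 0.62 over the 7 genes and 0.01 over all genes. Over the whole span 2 genes were called, Dlg2 higher and Homer3 lower (log2 change -3.68, SE 0.34, limma, adjusted p = 1.21e-05), against 27.4% of all genes, 17.4% higher and the rest lower. Both had passed the filter on low values only through the stages where they were high. Between E11.5 and PN the libraries did not overlap for 3 genes, again with Dlg2 and Homer2 higher and Homer3 lower, and for 40.3% of all genes, 23.6% higher and 16.7% lower. The order of levels was less settled than these changes. In each stage the libraries of genes next to each other in rank overlapped, with the exception of Dlg2 and Homer1 in PN, where the lowest Dlg2 value of 3.26 FPKM was above the highest Homer1 value of 2.81 FPKM.

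Other genes with like profiles were sought for the member of each family with the highest mean FPKM over the 9 libraries, by the root mean square difference of centred log2(FPKM + 1) values over the 9 libraries. These members were Dlg4, Homer3 and Shank1, though in PN Dlg3 was above Dlg4, and Homer1 and Homer2 were above Homer3. For Dlg4 the nearest were Zfhx2as (0.18), Prrc2a (0.22) and Abcd4 (0.26). For Homer3 they were Kif26a (0.26), Dlk1 (0.29) and Igf2bp1 (0.32), whose mean levels went from 9.12, 26.5 and 14.9 FPKM at E11.5 to 0.110, 1.73 and 0.191 FPKM in PN. For Shank1 they were Pink1 (0.24), Tmem110 (0.26) and Mfsd10 (0.27). Within E11.5 alone Shank1 ranged from 1.12 to 12.8 FPKM and Dlg4 from 5.96 to 22.0 FPKM. Nearness to these 2 genes therefore also reflects that spread between libraries, not only a course over the stages. The root mean square differences are in log2 units, and the Homer3 profile itself had an SD of 1.72 over the libraries, against 0.87 for Dlg4 and for Shank1.

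The partners of these scaffolds were followed in a list of 39 other postsynaptic genes, of which 38 were in the table and 34 were tested. From E11.5 to E15.5, 7 rose and 3 fell, and in the later interval 6 rose and 2 fell. The shares called, 29.4% and 23.5%, were near the 28.9% and 20.2% of all genes, so the counts show nothing particular to the list. The median log2 change of the list was 0.21 in the earlier and 0.61 in the later interval. Some of these genes, such as Cacng3, Camk2b, Dlgap2 and Nrgn, passed the filter on low values only through the stages where they were high. Counts of rises and median changes of the list, here and below, are thus no evidence about it. Among the steepest rises in the earlier interval were Cacng3, a subunit of AMPA receptors that docks on PSD-95 (0.0593 ± 0.0567 to 13.6 ± 5.18 FPKM), Camk2b, a subunit of the calcium- and calmodulin-dependent kinase of the postsynaptic density (0.449 ± 0.316 to 11.4 ± 2.10 FPKM), and Lin7b, a small PDZ adaptor (5.54 ± 6.61 to 20.7 ± 8.27 FPKM, SD, n = 3 each). The falls were those of Cacng8 and Cacng7, which belong to the same receptor subunit family as Cacng3, and of Camk2a (log2 changes -2.25, -1.90 and -1.42). Camk2b and Camk2a thus moved in opposite directions in this interval.

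In the later interval the steepest rises of the list were Lin7b (to 184 ± 67.1 FPKM), Nrgn, a calmodulin-binding protein of dendrites (0.0103 ± 0.0178 to 5.45 ± 1.37 FPKM), and Cacng3 (to 53.1 ± 15.6 FPKM, SD, n = 3 each). Gphn and Cttn fell (log2 changes -1.55 and -0.87). Gphn encodes gephyrin, the scaffold of inhibitory synapses, and was at 29.3 ± 3.58 at E15.5 and 9.60 ± 3.203 FPKM in PN (SD, n = 3). Cttn encodes cortactin, which binds Shank and branched actin. The Dlgap genes, which link Dlg to Shank, gave 1 rise in the earlier interval, that of Dlgap2 (log2 change 0.95), and no call in the later one. Between E11.5 and PN 9 genes of the list rose and 1, Cacng7, fell, which is 29.4% of the list against 27.4% of all genes. Cacng3, Lin7b and Camk2b rose most (log2 changes 5.63, 5.39 and 4.12). Dlgap1 was also among the rises, from 1.41 ± 2.17 to 8.76 ± 1.67 FPKM (SD, n = 3).

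**Figure D4:**
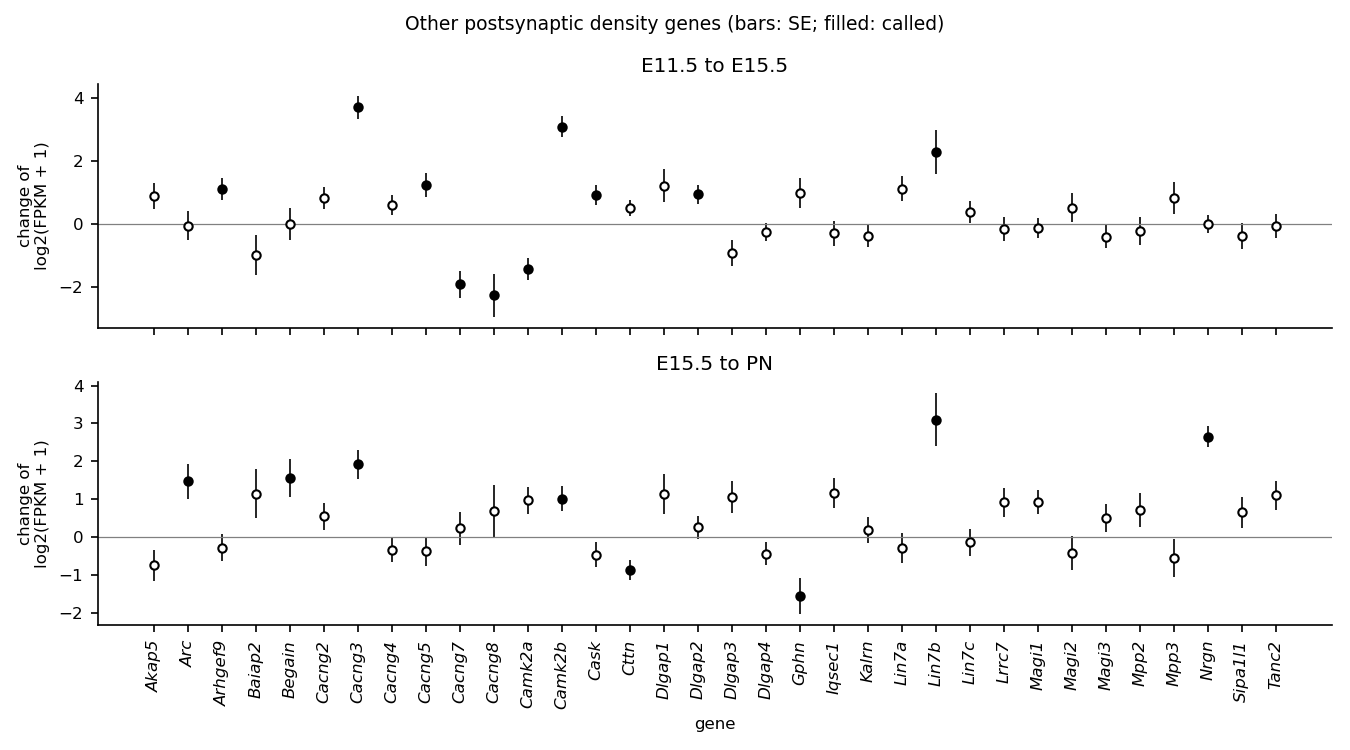
Change of log2(FPKM + 1) with its SE for the 34 tested partner genes from E11.5 to E15.5 and from E15.5 to PN, filled where called. Cacng3, Camk2b and Lin7b are filled above 0 in both panels, and Gphn and Cttn are filled below 0 in the lower one.

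The knockout series asks which genes depend on Pet-1 at E15.5, and there the table of each kit gives 1 value per group, so no spread between libraries can be shown. The target itself checked the labels. Fev was at 31.1 FPKM in wild type and 0.422 FPKM in the knockout in the authors' deposited table for the Clontech kit, and at 34.9 and 0.308 FPKM in the authors' deposited table for the NuGEN kit. A call required the authors' q to be below 0.05, a difference of 1.5-fold or more and a level of 1 FPKM or more in either group. The kits were normalised separately, and levels are not compared between them.

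Shank1 was higher in the knockout with the NuGEN kit. In the authors' deposited table for the NuGEN kit it was 3.71 FPKM in wild type and 7.88 FPKM in the knockout (log2 fold change 1.09, q = 0.00206) and was called. In the authors' deposited table for the Clontech kit it was 1.83 and 3.42 FPKM (log2 fold change 0.90, q = 0.0690), which was just short of the threshold. It was the 1 called scaffold gene of the 8 with at least 1 FPKM in the NuGEN table, where 12.7% of all such genes were called, 8.18% higher and 4.56% lower. With the Clontech kit 0 of 7 were called, against 2.81% of all, 0.960% higher and 1.85% lower, and 4 of the 7 had an unadjusted p below 0.05 in the authors' deposited table, against 16.9% of all. Those were Dlg2, Dlg3, Shank1 and Homer2. Homer2 reached 1 FPKM only in the knockout group of each kit (0.619 and 1.02 FPKM in wild type and knockout with Clontech, 0.764 and 1.23 FPKM with NuGEN). Counts and medians that include Homer2, here and below, are thus no evidence about the scaffold genes as a set. In the authors' deposited table for the NuGEN kit 2 of the 8, Shank1 and Homer2, had an unadjusted p below 0.05, against 28.3% of all, which is near the background.

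In the Clontech table the knockout value was higher for all 7 genes at 1 FPKM or more, a direction seen for 47.3% of all genes. Dlg2 was at 1.81 and 2.87 FPKM, Dlg3 at 2.61 and 4.13 FPKM and Dlg4 at 3.70 and 5.33 FPKM in wild type and knockout (q = 0.224, 0.288 and 0.408 in the authors' deposited table). Homer1 was at 1.77 and 2.52 FPKM, Homer2 at 0.619 and 1.02 FPKM and Homer3 at 1.16 and 1.32 FPKM (q = 0.497, 0.306 and 0.971 in the authors' deposited table). The 3 low genes, Dlg1, Shank2 and Shank3, were also higher in the knockout, at 0.609, 0.817 and 0.573 FPKM against 0.537, 0.412 and 0.279 FPKM in the authors' deposited table. The median log2 fold change of the 7 genes was 0.66, against -0.02 over all genes.

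This tilt was smaller in the NuGEN table. There the knockout value was higher for 5 of 8 genes, against 57.3% of all genes, and the median log2 fold change was 0.20, against 0.09. Dlg4 was at 4.83 and 4.26 FPKM, Dlg1 at 1.69 and 1.48 FPKM and Homer3 at 2.39 and 1.63 FPKM in wild type and knockout, each lower in the knockout and none called in the authors' deposited table (q = 0.723, 0.740 and 0.774). Homer2, at 0.764 and 1.23 FPKM, was nearest to a call after Shank1 among the genes above 1 FPKM (q = 0.0800 in the authors' deposited table). Shank3 was at 0.115 and 0.389 FPKM (q = 0.0702 in the authors' deposited table), below the level limit in both groups. Dlg2, Dlg3, Homer1 and Shank2 had q values from 0.285 to 0.837 in that table. Whether the response of any gene differs between the kits was not tested.

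Markers of other cells differed between the Clontech groups. The progenitor list, whose sum in the E15.5 stage libraries was mostly Fabp7, summed to 1363 FPKM in wild type and 481 FPKM in the knockout. The summed FPKM of the astrocyte list was 102 and 19.8, and that of 8 microglia and blood genes 16.8 and 2.72. In the NuGEN groups the same lists were at 178 and 308, 24.3 and 19.7, and 2.69 and 1.02 FPKM. The oligodendrocyte lineage list was at 35.3 and 29.5 FPKM in the Clontech groups and 11.4 and 17.7 FPKM in the NuGEN groups, and the vascular list was at most 1.52 FPKM. The serotonin neuron markers, Fev included, summed to 549 and 259 FPKM with the Clontech kit and 1072 and 436 FPKM with the NuGEN kit. The part of these cells in the scaffold values was not tested. The Clontech wild-type group and the E15.5 stage libraries were taken to be the same samples, from the protocol, and the stage means of the 10 genes were 0.766 to 1.13 times the Clontech wild-type values. The knockout values and the stage changes therefore share samples.

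**Figure D5:**
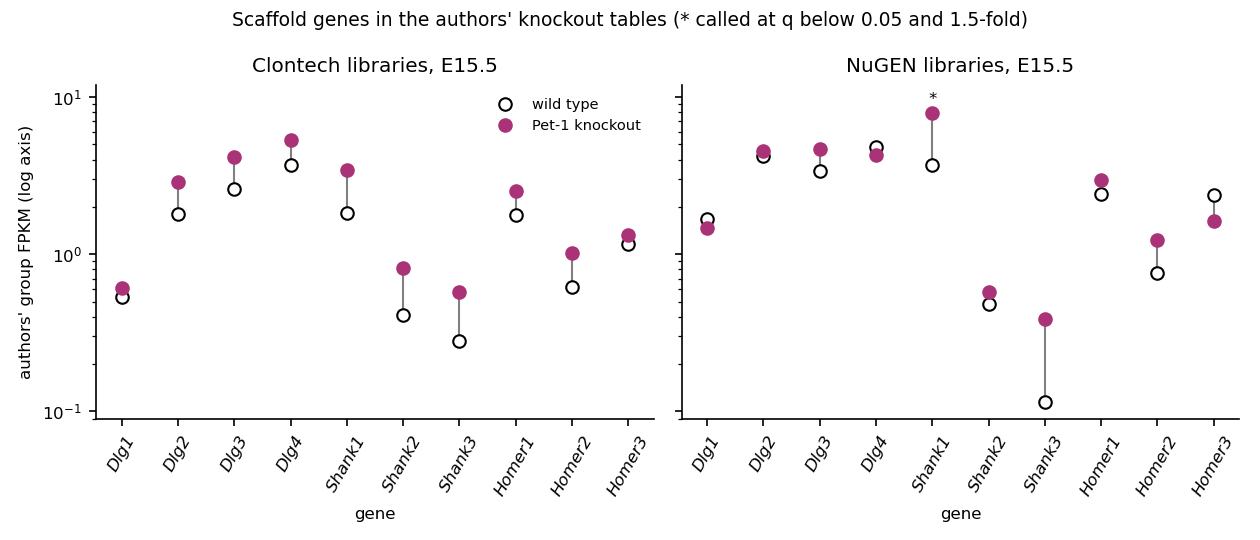
Group FPKM (log axis) of the 10 scaffold genes in wild type (open) and Pet-1 knockout (filled) at E15.5 in the authors' deposited tables for the 2 kits, with 1 value per group and an asterisk on a called gene. All knockout points are above the wild type in the Clontech panel, and Shank1, at 3.71 and 7.88 FPKM, carries the asterisk in the NuGEN panel.

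Of the partner list, 2 of 28 genes at 1 FPKM or more were called in the Clontech table, both higher in the knockout, and 4 of 29 in the NuGEN table, 3 higher and 1 lower. These are 7.14% and 13.8% of the list, against 2.81% and 12.7% of all genes. They were Camk2b (11.2 to 19.5 FPKM) and the scaffold Tanc2 (2.27 to 3.89 FPKM) in the authors' deposited table for the Clontech kit. In the authors' deposited table for the NuGEN kit they were Begain, a PSD-95-binding protein (2.44 to 6.999 FPKM), Magi2 (3.604 to 6.01 FPKM), Lin7a (9.55 to 15.3 FPKM) and Lin7c (82.9 to 48.3 FPKM). No gene of the list was called with both kits. Camk2b and Tanc2 had the authors' q = 0.843 and 0.670 with the NuGEN kit, at 24.1 to 25.8 and 4.58 to 5.19 FPKM. With the Clontech kit Begain was at 2.40 to 5.74 FPKM (authors' q = 0.0758). Magi2, Lin7a and Lin7c had the authors' q = 0.730, 0.676 and 0.981 there, at 5.35 to 6.16, 13.3 to 15.2 and 23.2 to 23.5 FPKM.

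Peaks of mycPet-1 lay near Shank1 and Homer1. Of the 10 genes these 2 had a peak within 5 kb of the RefSeq gene span in GRCm38.p6, the assembly that mm10 stands for, against 25.9% of 18069 protein-coding genes. The share of the 10 genes is thus near the background. With a score of at least 100 the same 2 genes remained, against 12.1% of genes. Within 20 kb there were 5, with Dlg2, Dlg4 and Homer3 added, against 34.5% of genes. Scores are the authors' own, from 50 to 3133 over 4934 peaks, called on 1 immunoprecipitated sample.

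The peak beside Shank1, at chr7:44304259-44305465, had a score of 703 and was number 130 of the 4934 by score. It lay 3.45 kb before the lower coordinate of Shank1 and inside the span of another gene, Clec11a. Clec11a, named here because of this position and after its values were seen, was at 1.98 FPKM in wild type and 2.14 FPKM in the knockout in the authors' deposited table for the Clontech kit (q = 0.956). In the authors' deposited table for the NuGEN kit it was at 2.66 and 3.05 FPKM (q = 0.770). The peaks nearest to Dlg2, Dlg4 and Homer3, with scores of 131, 113 and 106, overlapped other genes as well, namely Tmem126a, Dvl2, and both Cope and Ddx49.

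Homer1, whose promoter window with the peak is printed beside its stage levels, was not called in the authors' deposited tables of either kit (q = 0.497 and 0.531), at 1.77 and 2.52 FPKM with the Clontech kit and 2.43 and 2.98 FPKM with the NuGEN kit.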

How the data were processed

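Sorted serotonin neurons were profiled in 18 RNA libraries of 6 groups, and hindbrain chromatin in 1 sample with 1 input. The stage matrix holds FPKM of single libraries and the knockout tables hold FPKM of whole groups, as deposited by the authors and in Cuffdiff form per the file headers. A log2 fold change and its p-value and q-value were deposited by the authors for each gene, as was a score for each peak of a list on mm10. The submitters' processing notes name TopHat2, Cufflinks, BWA and MACS 1.4.2, with the builds mm9 and mm10. Neither rescaling between libraries nor strand use is named in the sources used here. The matrix has 3 more columns that match no sample, which were left out. Its E15.5 columns carry no kit name and were taken as Clontech from the protocol.

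Stages were compared on log2(FPKM + 1) with limma 3.58.1 (R 4.3.3), in 1 fit of 9 libraries with a mean-variance trend (6 residual degrees of freedom). Genes whose estimate failed in the authors' deposited table (14) and genes that reached 1 FPKM in fewer than 3 libraries were left out. Libraries of a stage had at most 0.00698% of their values in common. The limma fit was tried out on simulated data with known changes. All 10 genes are named, with Fev, the 3 steepest called rises and falls of the partner list in each interval and the 3 nearest profiles. Other names were chosen after their values were seen. Genes and lists were chosen with earlier results of these data known. Peaks were matched to RefSeq gene spans with pandas 2.3.3. The closing section gives the alternatives.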

Additional observations from a re-analysis of the deposited data

How the results depend on the processing

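No paired analysis was possible because the columns carry no replicate number. The 4 scaffold genes called from E11.5 to E15.5 became 2 with no filter on low values and 2 in a fit of the 2 groups alone, and 1 to 4 when 1 library was left out. From E15.5 to PN the 0 called became 1 with no mean-variance trend and 2 in the authors' deposited table. The 1 gene whose intervals differed became 0 with a pseudocount of 0.1, 2 with upper quartile scaling and 2 with no trend, and 0 to 2 without 1 library. The 10 partner genes called from E11.5 to E15.5 became 6 with no filter, and 4 to 10 without 1 library. The 8 called from E15.5 to PN became 3 with a pseudocount of 0.1, 5 with no filter, 14 in a fit of the 2 groups and 15 in the authors' deposited table, and 3 to 12 without 1 library. Over all genes 2370 were called from E15.5 to PN, 3846 in the authors' deposited table, and 1410 and 1551 without E15.5 library a or c and 1325 and 1517 without PN library a or b. Intervals differed for 2658 genes, and for 1471, 1744 and 1450 without E15.5 library a, b or c. The peak window was set after the data were seen: 2 genes within 5 kb became 1 for a peak overlapping the span and 5 within 20 kb. The cause of these shifts was not tested, beyond the fewer libraries or different genes in each fit.

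Changes of sign were found only for values that had not passed the test. Homer2 from E11.5 to E15.5 was at 0.02, and at -0.12 with a pseudocount of 0.1 and -0.032 with upper quartile scaling. Without 1 library the log2 changes from E11.5 to E15.5 ran from -1.32 to 0.027 for Shank1, -0.14 to 0.44 for Homer1 and -0.23 to 0.23 for Homer2. From E15.5 to PN they ran from -0.0054 to 0.43 for Dlg4 and -0.10 to 0.60 for Homer1, and from E11.5 to PN from -0.46 to 0.89 for Shank1. The difference between intervals ran from -0.63 to 0.066 for Dlg2 and -0.52 to 0.60 for Homer1. Of 252 values for single scaffold genes without 1 library, 220 kept direction and side of the threshold, as did 157 of 175 under the other alternatives. Counts in the knockout tables, 0 and 1, were the same at any fold, at q below 0.01 and with no level limit. Depth per library is not given, so how far it limits the low genes is not known.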
